A study of Mus musculus with 4 samples.

Results

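Of 19608 cells that passed the filters in 4 single-cell libraries of the embryonic mouse forebrain, 222 (1.132%) met at least 1 of 3 lists of 6 genes each, which mark blood vessels, mural or mesenchymal cells, and myeloid cells. A cell was a member when at least 3 genes of one list had at least 1 unique molecular identifier (UMI, a tag that counts each captured RNA molecule once). The endothelial list was Cldn5, Pecam1, Cdh5, Kdr, Flt1 and Esam, the mural or mesenchymal list Pdgfrb, Col1a1, Col1a2, Col3a1, Rgs5 and Kcnj8, and the myeloid list C1qa, C1qb, C1qc, Csf1r, Cx3cr1 and Fcer1g. These genes gave 52 endothelial, 86 mural or mesenchymal and 72 myeloid cells, and 12 cells that met more than 1 list. The other 19386 cells were the comparison group. All libraries came from wild-type (wt) mouse embryos at E12.5, the embryonic day by the label. The cortex (CTX) gave 1 library, and so did each ganglionic eminence, the domes of the ventral forebrain that produce GABAergic neurons: LGE is the lateral, MGE the medial and CGE the caudal one. Tissue was pooled over embryos and dissociated with Pronase, so a library is a pool and not an animal, and with 1 library per region no difference between regions could be tested.

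Blood vessels grow into the neural tube from a plexus on its surface. Endothelial cells form the tube, and the PDGF-B they secrete recruits pericytes, the mural cells on the outer side of the vessel wall, through the receptor Pdgfrb. Wnt7a and Wnt7b from neural cells, received by endothelial cells through Adgra2 (Gpr124) and Reck, are known to drive sprouting and the first features of the blood-brain barrier. Fibroblasts of the meninges lay down fibrillar collagen around the brain. Microglia and the macrophages at the brain's borders are myeloid cells that descend from yolk sac progenitors and need the receptor Csf1r to survive.

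Depth and purity differed between the groups compared. The libraries held 4301 to 6953 barcodes and 31451467 to 49794765 UMIs, and 3802 to 5597 cells per library passed. The median UMI count per library was 9214 to 17530 in endothelial cells, 6672 to 12020 in mural or mesenchymal cells and 12760 to 18940 in myeloid cells, against 6980 to 8158 in the other cells. A score from simulated doublets marked 11 of 13 endothelial and 7 of 10 mural or mesenchymal cells of the LGE library, 4 of 14 endothelial cells of MGE and 4 of 39 myeloid cells of CTX, and at most 2 cells in any other group. The 11 neuronal genes examined (Dcx, Tubb3, Stmn2, Mapt, Map2, Gap43, Neurod6, Gad2, Dlx1, Dlx2 and Dlx5) summed to 231.8 CPM, the usual scaling of a gene's UMIs to the total of its sum, in the LGE endothelial cells and to 5867 CPM in the other LGE cells. That sum does not cover genes of progenitors, and whether the marked cells are doublets was not tested. Of the barcodes that met a list, 20 of 83 endothelial, 13 of 111 mural or mesenchymal and 35 of 108 myeloid ones failed a filter, and all 35 of the myeloid ones failed the limit of more than 1000 genes. Pairs of libraries shared 4 to 15 barcode sequences, and no member shared its barcode with a member of another library.

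The genes of the 3 lists separated the cells almost completely, which is a description of the choice and not a result. Cldn5, a tight junction claudin, stood at 1717, 1519, 3653 and 4108 CPM in the endothelial cells of CTX, LGE, MGE and CGE and at 0 in the summed mural or mesenchymal and myeloid cells of every library. It had a UMI in 96.2% of endothelial cells and in 0.150% of other cells. After every cell was thinned to 2000 UMIs, the shares were 92.2% of 51 endothelial and 0.0428% of 18693 other cells. C1qb, a chain of complement C1q, stood at 3832, 4263, 4182 and 3871 CPM in the myeloid cells and at 0.0226 to 0.104 CPM in the other cells. The C1q genes are neighbours on chromosome 4 (C1qb chr4:136880129-136886187, C1qc chr4:136889804-136893065 and C1qa chr4:136895917-136898803, minus strand, GENCODE on GRCm38), and each was at 0 in every endothelial and mural or mesenchymal sum. The mural or mesenchymal list was uneven over libraries. Rgs5, a regulator of G protein signalling found in pericytes, stood at 566, 3189, 3624 and 4527 CPM in CTX, LGE, MGE and CGE, and Col3a1, a fibrillar collagen chain, at 4011, 512, 513 and 519 CPM. Rgs5 was thus lowest and Col3a1 highest in CTX. Esam, an adhesion molecule of the endothelial list, was also present in mural or mesenchymal cells, at 100.2, 219, 313 and 340.0 CPM.

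Cells near the threshold were few, and some members entered on single UMIs, such as a CTX cell with 1 UMI each of Col1a1, Col1a2 and Col3a1 among 7707 UMIs. The counts by number of list genes include the cells that met more than 1 list. For the endothelial list, 25 cells had UMIs of 2 list genes and stayed outside, with a median of 3 list UMIs. Another 4 cells had exactly 3 genes, with a median of 5 UMIs, while 54 cells had all 6 genes, with a median of 121. For the myeloid list, 3 cells had 2 genes, 1 cell had 3 and 64 cells had 6. The mural or mesenchymal list had more cells at the limit, with 24 cells at 2 genes (median of 3 list UMIs) and 29 at 3 genes (median of 31). Of the 12 cells that met more than 1 list, 11 met the endothelial and the mural or mesenchymal lists and 1 the mural or mesenchymal and myeloid lists. They held a median of 37680 UMIs (range 10673 to 73039), and 7 of them were in CGE, 4 in CTX, 1 in MGE and 0 in LGE. None carried the doublet mark, and they were kept out of the sums and of the shares per list below.

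**Figure D1:**
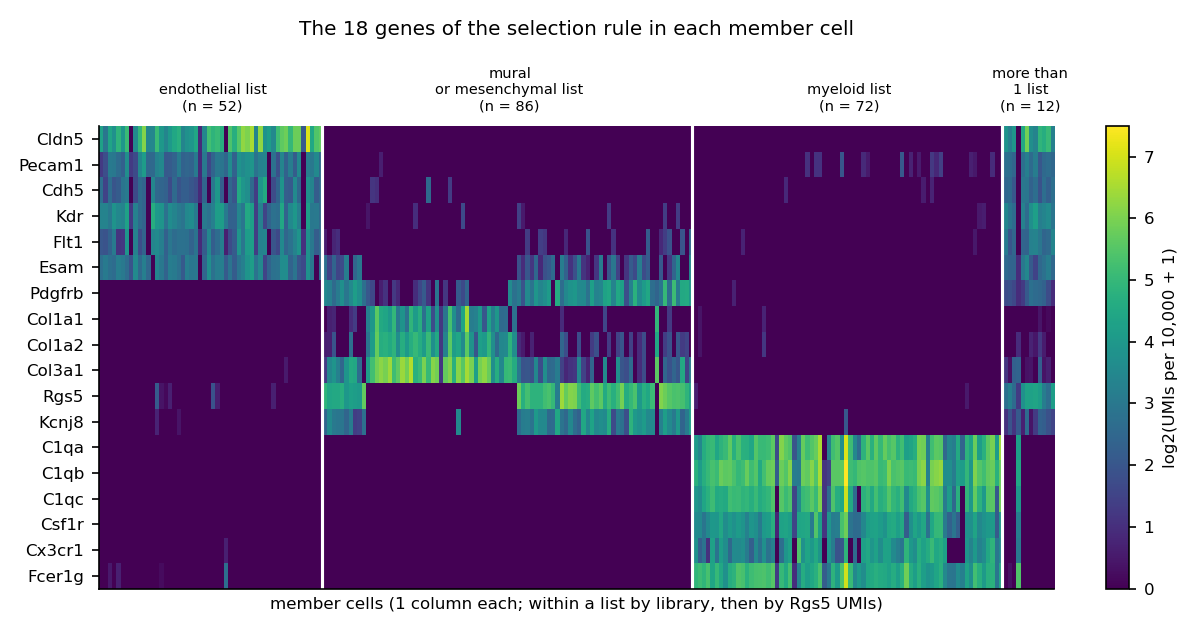
Levels of the 18 list genes (rows) in the 222 member cells (columns), as log2 of UMIs per 10000 UMIs of the cell plus 1; cells are grouped by list, then by library, then by Rgs5. Each list's genes fill their own block, and the CTX cells of the mural or mesenchymal list are mostly high in collagens and low in Rgs5 and Kcnj8.

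Endothelial cells took 0.232% to 0.316% of each library, while mural or mesenchymal and myeloid cells took a larger share of the cortex library. Endothelial cells were 13 of 4614 cells in CTX (0.282%, exact 95% binomial interval 0.150 to 0.481), 13 of 5597 in LGE (0.232%, 0.124 to 0.397), 14 of 5595 in MGE (0.2502%, 0.137 to 0.420) and 12 of 3802 in CGE (0.316%, 0.163 to 0.551). Their intervals overlapped. Without the cells marked as doublets, LGE held 2 endothelial cells (0.0374%, 0.00453 to 0.135), and its interval then lay below those of CTX (0.156 to 0.4997) and CGE (0.168 to 0.568). Mural or mesenchymal cells were 45 cells in CTX (0.9753%, 0.712 to 1.30), 10 in LGE (0.179%, 0.0857 to 0.328), 23 in MGE (0.411%, 0.261 to 0.616) and 8 in CGE (0.210%, 0.0909 to 0.414). Myeloid cells were 39 in CTX (0.845%, 0.602 to 1.15), 11 in LGE (0.197%, 0.0982 to 0.351), 13 in MGE (0.232%, 0.124 to 0.397) and 9 in CGE (0.237%, 0.108 to 0.449). For both, the CTX interval lay above that of each eminence, and the eminences overlapped. For mural or mesenchymal cells this depended on the rule: with 4 or more list genes the CTX interval (0.351 to 0.799) met those of MGE (0.191 to 0.508) and CGE (0.0741 to 0.379). It also met that of MGE with cells of 1500 to 4500 genes (0.535 to 1.14 against 0.268 to 0.661) and with every cell at 2000 UMIs (0.522 to 1.06 against 0.224 to 0.564). Without marked doublets, LGE (0.0116 to 0.164) lay below MGE (0.258 to 0.6225). These intervals, and every floor below, cover counting error only. Dissection, dissociation and the library differ together with the region and cannot be told apart from it.

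Many CTX cells of these 2 lists carried markers of fibroblasts or of border macrophages. Each mural or mesenchymal cell was assigned by whether it had UMIs of more mural markers (Pdgfrb, Rgs5, Kcnj8, Cspg4, Abcc9, Notch3, Vtn and Anpep) or of more fibroblast markers (Col3a1, Col1a1, Col1a2, Dcn, Lum, Pdgfra, Foxc1 and Twist1). Mural-like cells numbered 10, 10, 22 and 8 in the libraries CTX, LGE, MGE and CGE, or 0.217%, 0.179%, 0.393% and 0.210% of the cells. Fibroblast-like cells were 35 in CTX (0.759%, exact 95% interval 0.529 to 1.05), 1 in MGE, and 0 in LGE and CGE. The exact 95% interval of the share reached 0.0659% in LGE and 0.0970% in CGE. No cell lay within 1 gene of the split. Myeloid cells were assigned in the same way by microglial markers (among them P2ry12, Tmem119, Sall1 and Siglech) and border macrophage markers (Mrc1, Pf4, Lyve1, Cd163, F13a1 and Stab1). Microglia-like cells numbered 16, 11, 12 and 9, or 0.347%, 0.197%, 0.214% and 0.237%. Border macrophage-like cells were 19 in CTX (0.412%, 0.248 to 0.642) and 0 in the eminences, where the exact 95% interval reached 0.0659% in LGE and MGE and 0.0970% in CGE. Another 5 myeloid cells, 4 of them in CTX, were tied, and 4 of 48 microglia-like and 3 of 19 border macrophage-like cells lay within 1 gene of the split. As the markers include list genes and define these groups, the shares describe the assignment.

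**Figure D2:**
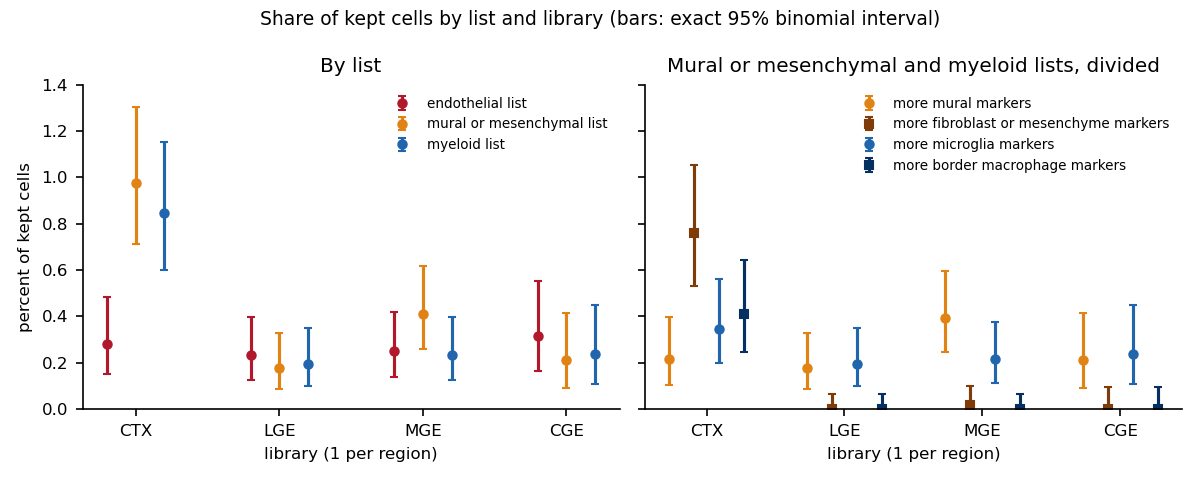
Share of the kept cells of each library (percent) that met each list and no other (left) and that fell to each marker group (right). Points are libraries, n = 1 per region, and bars are exact 95% binomial intervals. Endothelial shares lie between 0.232% and 0.316%, and the fibroblast-like and border macrophage-like points stand above the rest in CTX alone.

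**Figure D3:**
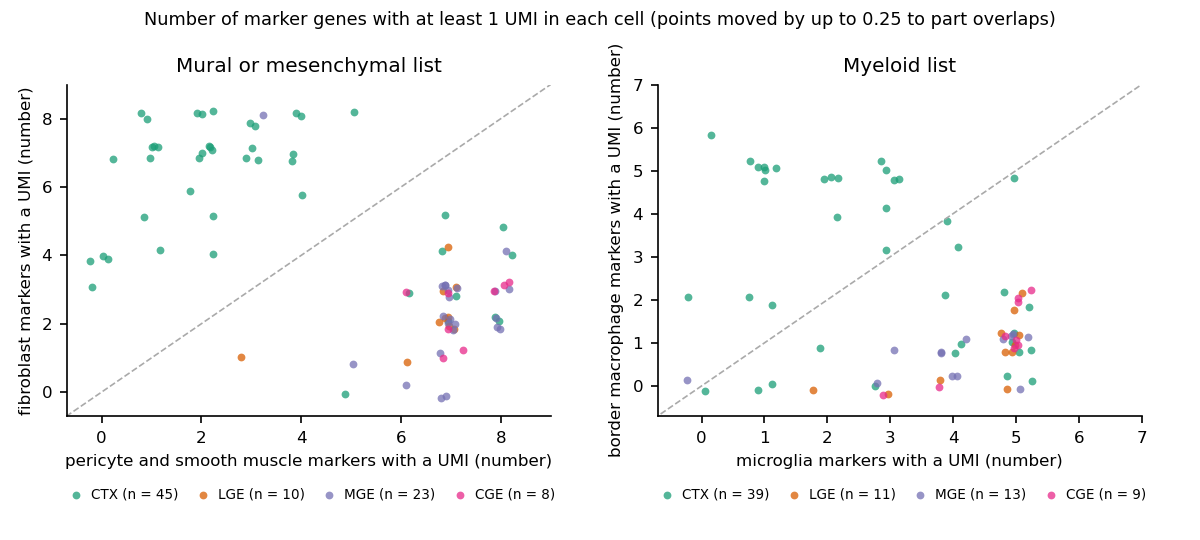
Number of marker genes with at least 1 UMI in each mural or mesenchymal cell (left, mural markers against fibroblast markers) and each myeloid cell (right, microglial against border macrophage markers), coloured by library, with points moved by up to 0.25 and a dashed line of equal numbers. The cells above the line are from CTX, apart from 1 MGE cell on the left; 5 myeloid cells, 1 of them from MGE, fell on the line.

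Each list was then set against the other cells, to ask which genes beyond the list went with it. UMIs were summed per list and library, and the 16 sums were compared with edgeR's quasi-likelihood test with the library as a block. A gene was called at a Benjamini-Hochberg adjusted p below 0.05 over 4966 genes and a log2 fold change (log2 FC) of at least 1 in size. The cells had been chosen by their own transcripts, so an adjusted p here says how regularly a difference recurred over 4 libraries and is not independent evidence that the cells differ. It measures only the spread between these sums, which differ by region and by library at once. A gene could also pass the filter on low counts through the list in which it is high, so the counts over gene sets below describe those genes and support nothing.

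Endothelial cells carried a broad vascular programme. Against other cells, 936 genes were higher (18.8% of those tested) and 721 lower (14.5%). Of 20 further genes of endothelial identity, 19 passed the filter and 19 were called higher, with a median log2 FC of 11.35 (median of all genes, -0.07). Ramp2, which couples the adrenomedullin receptor, stood at 1546, 1565, 1902 and 1912 CPM in CTX, LGE, MGE and CGE and at 1.34 to 3.19 CPM in other cells. Egfl7, a secreted vascular factor, stood at 1739, 1459, 1501 and 1274 CPM, and Cd34, a sialomucin of endothelial and blood-forming cells (chr1:194938819-194961279), at 1368, 1001, 1006 and 933 CPM. None of these ranges met that of the other cells. The log2 FC was 9.80 ± 0.32 (SE, 4 libraries, adjusted p = 1.9e-12) for Ramp2, 8.19 ± 0.43 for Egfl7 and 12.43 ± 0.49 for Cd34. Each SE in this text is the size of the log2 FC over the square root of the test's F statistic. It can be smaller than the counting error where other cells hold few UMIs of a gene.

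The endothelial genes that stood out by size included angiogenic receptors and surface molecules. Aplnr, the apelin receptor of growing vessels, stood at 451, 341, 439 and 205 CPM and at 0 in mural or mesenchymal and myeloid sums (log2 FC against other cells 13.16 ± 0.41, adjusted p = 1.1e-09). Tek, the angiopoietin receptor Tie2 (chr4:94739289-94874976), had a log2 FC of 12.71 ± 0.56, Cd93, a C-type lectin, of 12.52 ± 0.32, and Ecscr, an endothelial surface protein, of 12.63 ± 0.37. Icam2, an adhesion molecule, had 12.82 ± 0.61, Eltd1, an adhesion G protein-coupled receptor, 12.59 ± 0.56, and AU021092 (chr16:5211823-5222299) 13.26 ± 0.34. Acvrl1, a BMP9 receptor, and Adm, adrenomedullin, had 3 UMIs each in all other cells, so their ratios to other cells of 8007 (exact 95% interval 2682 to 39320) and 7768 (exact 95% interval 2600 to 38160) are loose. Tek, Icam2 and AU021092 (0.02456 CPM each) and Aplnr and Eltd1 (0.03069 CPM each) were also near the floor of 0.01842 CPM in other cells. The log2 FC of these 5 genes is thus loose too, whatever the SE. The lowest genes were neural. Sox5, a transcription factor, had 1 UMI in all endothelial cells against 21159 in other cells. Ptprz1, a radial glial phosphatase, and Mt3, a metallothionein, had 2 each, Pou3f2, a POU factor, 3 and Lmo1, a LIM-only factor, 4 (log2 FC -5.50 ± 0.73).

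Transport genes of the blood-brain barrier were present, several of them at their lowest in the CTX library. Slc2a1, the glucose transporter GLUT1 (chr4:119108711-119137983), stood at 1288, 2026, 2869 and 2685 CPM in CTX, LGE, MGE and CGE, against 16.7 to 38.2 CPM in other cells (log2 FC 6.61 ± 0.44, adjusted p = 3.4e-09). The amino acid transporters Slc7a5 (692, 706, 1190 and 1439 CPM) and Slc38a5 (118, 423, 645 and 609 CPM) and the forkhead factor Foxq1 (166, 461, 478 and 512 CPM) were also higher than in other cells, with log2 FC of 6.22 ± 0.37, 11.70 ± 0.45 and 10.66 ± 0.62. CTX was the lowest library for these 4 genes. In all, 10 of 16 barrier genes passed the filter and 10 were called higher (all tested genes, 18.8%), Plvap among them. Plvap, a protein of fenestrated and immature vessels that the mature barrier lacks, stood at 365, 449.9, 439 and 279 CPM (log2 FC 8.44 ± 0.35). Mfsd2a, a lipid transporter that limits transcytosis, and Slco1c1, a thyroid hormone transporter, did not pass the filter. Mfsd2a stood at 48.3, 338, 506 and 586 CPM in endothelial cells and Slco1c1 at 5.37, 62.7, 328 and 427 CPM, again lowest in CTX.

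Some genes of Wnt signalling were higher in endothelial than in other cells, and part of them in mural or mesenchymal cells too. Lef1, a transcription factor of the pathway, stood at 139.5, 196, 139 and 154 CPM in endothelial cells and at 0.688 to 32.2 CPM in other cells (log2 FC 4.74 ± 0.66). Nkd1, a feedback inhibitor, stood at 42.9, 164, 234 and 376 CPM in endothelial and 31.6, 9.04, 8.88 and 13.8 CPM in other cells (log2 FC 3.91 ± 0.48). Of 16 genes of this set 5 passed the filter, and 4 were called higher, Lef1, Nkd1, Tcf7 and Tspan12. Ctnnb1, the shared effector beta-catenin, was not called (0.38 ± 0.15). Nkd1 and Tcf7 were also higher in mural or mesenchymal than in other cells, and of the 5 genes Lef1 alone was called between those lists (3.57 ± 0.88). The share of all tested genes called higher was 18.8% in endothelial and 17.7% in mural or mesenchymal cells. Of the ligands, Wnt7a stood at 19.8, 28.4, 26.3 and 31.7 CPM in other cells, and Wnt7b at 117, 2.67, 12.2 and 57.4 CPM. The coreceptor Adgra2, listed as Gpr124, stood at 32.2 to 54.5 CPM in endothelial cells, 21.6 to 71.6 CPM in mural or mesenchymal cells and 0.0226 to 0.104 CPM in other cells. It and both ligands did not pass the filter and were not tested.

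Genes of tip cells and arteries showed both even and uneven levels over the libraries. Of 18 listed genes 11 passed, and 8 were called higher in endothelial cells (all tested genes, 18.8%) and 6 in mural or mesenchymal cells (17.7%), with 5 called in both (Gja4, Jag1, Notch4, Plxnd1 and Unc5b). Between these lists 3 were called, Apln, Aplnr and Plxnd1, each higher in endothelial cells. Apln, the ligand of Aplnr made by tip cells, stood at 284, 264, 234 and 284 CPM (log2 FC 8.27 ± 0.41). Plxnd1, a semaphorin receptor that guides sprouts, stood at 402, 308, 295 and 193 CPM (7.87 ± 0.58). Gja4, the arterial connexin Cx37, stood at 32.2, 191, 656 and 694 CPM (10.51 ± 0.45) and the Notch target Hey1 at 16.1, 79.1, 189 and 182 CPM (2.31 ± 0.76). Apln was even over the libraries, and Gja4 was lowest in CTX. In LGE, the cells with the doublet mark were 11 of 13, and without them the sum was too small to enter the test. With marked cells left out of every group, 976 genes were higher and 765 lower.

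A single cell of the endothelial list stood apart. It was in MGE, held 17488 UMIs and had 1177 UMIs of Pf4 and 117 of Itga2b, genes of megakaryocytes and platelets, with 47 of the globin Hba-a1. It met the list through Kdr (13 UMIs), Pecam1 (8), Esam (6) and Flt1 (1), with 0 UMIs of Cldn5 and Cdh5. It also held 729 UMIs of Ctla2a, a listed endothelial gene whose level was 402, 314, 4493 and 319 CPM in CTX, LGE, MGE and CGE and 486.6 CPM in MGE without this cell. Without the cell, 927 genes were called higher and 734 lower.

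Mural or mesenchymal cells carried pericyte and matrix genes, and some endothelial ones. Against other cells, 879 genes were higher (17.7%) and 563 lower (11.3%). Of 17 genes of pericytes and smooth muscle, 10 passed the filter and 10 were called higher (median log2 FC 9.33; all genes, -0.10). Vtn, vitronectin, an adhesive protein that brain pericytes make (chr11:78499091-78502324), stood at 1475, 1974, 2841 and 4026 CPM and at 0 in every endothelial sum (log2 FC against other cells 12.96 ± 0.57, adjusted p = 1.0e-09). Abcc9, the sulfonylurea receptor SUR2, stood at 150.3, 594, 897 and 1199 CPM (13.03 ± 0.36). Its gene lies beside Kcnj8, the channel subunit it pairs with, on chromosome 6 (Abcc9 chr6:142587862-142702315, Kcnj8 chr6:142564837-142571614). Ndufa4l2, a mitochondrial protein of pericytes, stood at 208, 1033, 1010 and 1109 CPM (9.49 ± 0.68), and Myl9, a myosin light chain, at 246, 996, 929 and 859 CPM (7.50 ± 0.48). CTX was lowest for each of these 4 genes, and 35 of its 45 cells were fibroblast-like by the marker split. The part that this mix of cells had in the lower levels was not tested. Acta2 and Tagln, contractile proteins of smooth muscle, did not pass the filter, and stood at 5.40 to 35.8 CPM and 0 to 76.3 CPM. Of the 19 tested genes of endothelial identity, 10 were also higher here than in other cells (median log2 FC 4.52), as were 6 of the 10 tested barrier genes, while of the endothelial list genes Cldn5 was at 0 and Esam at 100.2 to 340.0 CPM. Ramp2 stood at 301, 302, 367 and 626 CPM (7.53 ± 0.31). The part that endothelial RNA had in these levels was not tested.

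Other genes named by size in these cells were Ednra, an endothelin receptor (57.3, 174, 373 and 608 CPM), Heyl, a Notch target (119, 366, 481 and 394 CPM), Tbx18, a T-box factor, Foxs1, a forkhead factor, Tbxa2r, the thromboxane receptor, Igfbp7, a matrix protein, Bgn, the proteoglycan biglycan, and Lamc3, a laminin chain. The log2 FC was 11.20 ± 0.54 for Foxs1, 11.32 ± 0.37 for Bgn, 11.38 ± 0.49 for Heyl, 11.53 ± 0.57 for Tbxa2r, 11.60 ± 0.63 for Tbx18, 11.79 ± 0.54 for Igfbp7 and 12.20 ± 0.59 for Ednra. Lamc3 had 3 UMIs in other cells and a ratio of 9807 (exact 95% interval 3287 to 48130). Igfbp7 stood at 837, 1456, 1368 and 1348 CPM in endothelial and 296, 2312, 2301 and 2952 CPM in mural or mesenchymal cells. The latter were lower in CTX alone, and over all libraries the difference did not pass the test (-0.34 ± 0.35, adjusted p = 0.6). The lowest genes included Dlx6os1 and Sp9, of the GABAergic lineage, with 3 UMIs each, RP23-145L9.6 with 2 and Gm14204 with 1. Meg3, an imprinted long noncoding RNA, was higher in these cells, at 3128, 4158, 5185 and 7927 CPM against 269.5, 1097, 952 and 2496 CPM in the other cells of the same libraries (2.23 ± 0.44). In myeloid cells it stood at 5.69 to 14.8 CPM and was lower than in other cells (-6.05 ± 0.71).

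The mural-like and fibroblast-like cells of CTX held different transcripts. Among genes that were not used to split them, Foxq1 stood at 148 and 0 CPM in the 10 mural-like and the 35 fibroblast-like CTX cells, and Pgf, the placental growth factor, at 175 and 9.65 CPM. Both were higher in the mural-like sum. Cxcl12, a chemokine that guides migrating cells, stood at 0 and 1159 CPM, Bmp7, a morphogen, at 0 and 383 CPM, and Slc6a13, a GABA transporter of the meninges, at 0 and 228 CPM. Slc1a3, a glutamate transporter, stood at 0 and 605 CPM, and the matrix proteins Col6a1 and Fbn2 at 0 and 351 CPM and at 64.6 and 566 CPM. These 6 were higher in the fibroblast-like sum. Zic1, a zinc finger factor of the meninges, stood at 471 and 698 CPM, and Col4a1, a chain of basement membrane collagen, at 2002 and 1603 CPM. These are single sums of 1 library, so they carry no test. Of 22 fibroblast genes, 5 passed the filter and 5 were called higher in the whole list (all tested genes, 17.7%). The 17 that did not pass include Dcn and Lum, matrix proteoglycans, which stood at 1849, 0, 70.2 and 0 CPM and 1553, 0, 129.6 and 0 CPM in CTX, LGE, MGE and CGE. With the mural-like cells alone, 862 genes were higher and 635 lower.

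Myeloid cells carried the transcripts of microglia and macrophages. Against other cells, 1004 genes were higher (20.2%) and 964 lower (19.4%), and with scaling by total UMIs in place of trimmed means the split moved to 819 higher and 1343 lower. Of 22 genes of microglia and macrophages, 19 passed and 19 were called higher (median log2 FC 12.8; all genes, -0.14). Tyrobp, the adaptor of Trem2 (chr7:30413760-30417585), stood at 2262, 2613, 2613 and 2273 CPM and at 0 in every endothelial and mural or mesenchymal sum (14.31 ± 0.56, adjusted p = 6.5e-09). Trem2, a lipid receptor, stood at 644, 819.7, 747 and 947 CPM (14.43 ± 0.36), and Spi1, the transcription factor PU.1 of the myeloid lineage, at 670.0, 603, 678 and 669 CPM (adjusted p = 2.9e-10). Ctss, the protease cathepsin S, Fcrls, an Fc receptor-like molecule of microglia, and Ly86 had 3 UMIs each in the other cells, which gives ratios of 71440 (exact 95% interval 24390 to 346800), 49990 (exact 95% interval 17050 to 242800) and 33240 (exact 95% interval 11320 to 161600). Emr1, the F4/80 antigen, had 2. Ms4a6b, Fcgr1, an Fc receptor, and Ltc4s, leukotriene C4 synthase, had 0, so they were at least 14350-fold, 10700-fold and 9236-fold higher against a floor of 3 counts over all other cells. The lowest genes included neural ones, with 0 UMIs of Ebf1 in myeloid cells against 22012 in other cells (at least 46.87-fold lower), 1 of Ank3 and of Six3 and 2 of Dlx5. Meg3, also among the 5 lowest, had 13.

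Most lysosomal and phagocytic genes tested were higher in each of the 3 lists than in other cells. Of 17 such genes 12 passed, of which 12 were called higher in myeloid cells (median log2 FC 5.59; all tested genes called, 20.2%), 9 in endothelial (1.92; 18.8%) and 9 in mural or mesenchymal cells (2.07; 17.7%). Lpl, lipoprotein lipase, was lower in the latter pair than in other cells. Myeloid cells were higher than endothelial cells for 11 of the 12 and than mural or mesenchymal cells for 10, with Axl higher in the latter. Apoe, the lipid carrier, stood at 9059, 6261, 6533 and 5430 CPM and at 6.88 to 25.1 CPM in other cells (8.94 ± 0.61). The cathepsins Ctsb (3471, 2704, 3910 and 3024 CPM) and Ctsd (2712, 3563, 3762 and 4350 CPM) were higher by 5.79 ± 0.27 and 6.18 ± 0.21. Vim, an intermediate filament of radial glia and of mesenchymal cells, was lower in myeloid cells, at 119 to 220.0 CPM against 685 to 998 CPM in other cells (-2.01 ± 0.17). It was higher in endothelial (1584 to 2077 CPM, 1.20 ± 0.15) and in mural or mesenchymal cells (1646 to 2276 CPM, 1.29 ± 0.16).

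Within CTX, the 19 border macrophage-like cells differed from the 16 microglia-like cells in genes beyond the markers, as single sums with no test. Dab2, an endocytic adaptor, stood at 2690 and 86.0 CPM in border macrophage-like and microglia-like cells, Ms4a7 at 431 and 0 CPM, Apoe at 11400 and 4550 CPM, and the growth factor Igf1 at 251 and 21.5 CPM. Tgfbr1, a receptor of transforming growth factor, went the other way, at 64.4 and 365 CPM, as did Olfml3, a secreted protein of microglia, at 20.4 and 226 CPM, and Gpr34, a lysophospholipid receptor, at 102 and 494 CPM. P2ry12, the ADP receptor of microglia and a marker of the split, stood at 924, 973, 882 and 909 CPM in the microglia-like cells of CTX, LGE, MGE and CGE. Of 12 border macrophage genes 2 passed the filter, Dab2 and Stab1. Of the 10 others, Lyve1, the hyaluronan receptor, stood at 1098, 0, 0 and 0 CPM in myeloid cells and F13a1, a clotting factor subunit, at 1102, 0, 0 and 0 CPM, so that both were seen in CTX. With the microglia-like cells alone, 940 genes were higher and 953 lower than in other cells.

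**Figure D4:**
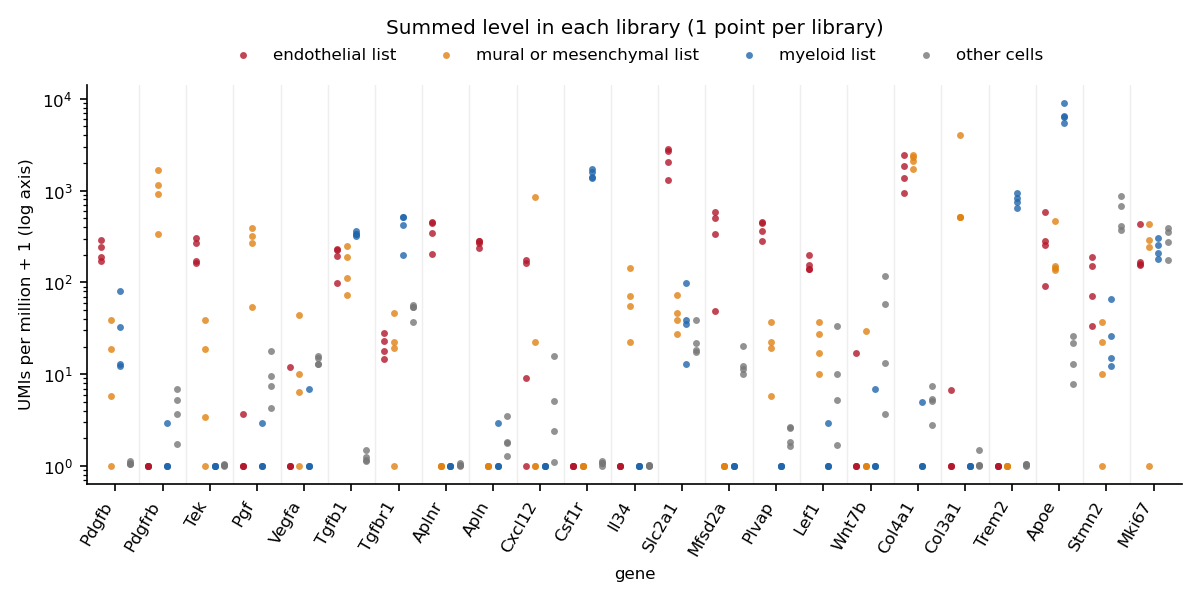
Levels of 23 genes in the summed cells of each list and in the other cells, in CPM plus 1 on a log axis, with 1 point per library. Slc2a1 lies high in endothelial and Trem2 in myeloid cells, Col4a1 in endothelial and mural or mesenchymal cells, and Tgfb1 above the other cells in all 3 lists.

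Some ligands and their receptors lay in different lists. Pdgfb stood at 188, 169, 245 and 290.2 CPM in endothelial cells (log2 FC against other cells 11.35 ± 0.45) and was higher there than in mural or mesenchymal cells (4.09 ± 0.49, adjusted p = 2.4e-05). Its receptor Pdgfrb, a list gene, stood at 336, 914, 1156 and 1664 CPM in mural or mesenchymal cells and at 0 in endothelial cells. Pgf stood at 52.5, 265, 319 and 394 CPM in mural or mesenchymal cells (4.80 ± 0.39), while its receptor Flt1 is an endothelial list gene. Both receptors chose the cells, and cells that met more than 1 list were left out. The place of Pdgfrb and Flt1 thus follows in part from the choice and is not a result. Tgfb1, the ligand, was higher than in other cells in all 3 lists (9.45 ± 0.43, 8.92 ± 0.46 and 10.53 ± 0.44 in endothelial, mural or mesenchymal and myeloid cells), and lower in endothelial than in myeloid cells (-1.07 ± 0.32, adjusted p = 0.017). Tgfbr1, its type I receptor, stood at 196, 512, 515 and 423 CPM in myeloid cells (3.30 ± 0.30) and was lower in endothelial than in other cells (-1.33 ± 0.46, adjusted p = 0.025). Nrros, which holds latent TGF-beta on microglia, was higher than in other cells in myeloid (7.67 ± 0.33) and endothelial cells (6.05 ± 0.37). Eng, a coreceptor of vessels, stood at 456, 534, 489 and 649 CPM in endothelial cells (11.60 ± 0.48).

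Ligands of the macrophage receptor Csf1r were low. Il34 stood at 21.5, 54.8, 70.2 and 143 CPM in mural or mesenchymal cells and at 0 in endothelial and myeloid sums. Csf1 stood at 9.91, 22.8, 129 and 114 CPM in myeloid cells and at 0.935 to 2.52 CPM in other cells. Neither passed the filter on low counts, so neither was tested. Cxcl12, also untested, stood at 859, 0, 21.6 and 0 CPM in mural or mesenchymal cells and at 0, 8.18, 161 and 176 CPM in endothelial cells, with CTX the highest of the first and the lowest of the second.

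Endothelial and mural or mesenchymal cells both carried genes of the basement membrane, the sheet of matrix that both rest on. Of 22 matrix genes 14 passed, of which 13 were called higher in endothelial (all tested genes, 18.8%), 14 in mural or mesenchymal (17.7%) and 2 in myeloid cells (20.2%) than in other cells. The 2 of 14 in myeloid cells are near the share over all genes. Col4a1 stood at 949.9, 1361, 2463 and 1843 CPM in endothelial cells and at 1706, 2120, 2339 and 2469 CPM in mural or mesenchymal cells, and the difference between them did not pass the test (-0.35 ± 0.28, adjusted p = 0.46). For Col4a2, which starts beside Col4a1 on the other strand (Col4a1 chr8:11198423-11312826, Col4a2 chr8:11312805-11449287), it was 0.11 ± 0.25. Bgn was lower in endothelial than in mural or mesenchymal cells (-1.31 ± 0.25, adjusted p = 0.0026). Sparc, a collagen-binding protein, was called higher than in other cells in all 3 lists, at 1884 to 3676, 1150 to 2212 and 311 to 1119 CPM.

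The lists were also compared with each other. Between endothelial and mural or mesenchymal cells, 379 genes were higher in endothelial (7.63%) and 345 in mural or mesenchymal cells (6.95%). Of the tested identity genes of endothelium 18 of 19 were higher in endothelial cells, and of the pericyte genes 9 of 10 in mural or mesenchymal cells. Foxq1 (0.63 ± 0.46) and Gja4 (0.75 ± 0.35) did not pass between them, and Foxq1 stood at 38.2, 338, 335 and 608 CPM in mural or mesenchymal cells. Between endothelial and myeloid cells, 649 genes were higher in endothelial (13.1%) and 574 in myeloid cells (11.6%). Laptm5, a lysosomal protein of blood cells, stood at 101 to 222 CPM in endothelial and 803 to 1004 CPM in myeloid cells (-2.81 ± 0.26), and Stab1, a scavenger receptor, at 123 to 172 and 119.5 to 1043 CPM. Both were at 0 in mural or mesenchymal sums. Between mural or mesenchymal and myeloid cells, 733 genes were higher in mural or mesenchymal (14.8%) and 625 in myeloid cells (12.6%). The 19 tested microglial genes were each higher in myeloid cells than in either of the other lists.

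Neural transcripts were low in all 3 lists. The 10 neuronal genes tested were called lower in every list, with median log2 FC of -3.19, -4.16 and -3.89 in endothelial, mural or mesenchymal and myeloid cells. The 11 listed genes summed to 231.8 to 1462 CPM, 108.0 to 411.6 CPM and 74.0 to 757 CPM in the lists and to 2893 to 7106 CPM in other cells. CGE had the highest endothelial sum, and Tubb3, a neuronal tubulin, stood at 80.5, 95.4, 256 and 649 CPM in endothelial cells. Of 9 progenitor genes 7 passed, with 5, 4 and 6 called lower. Beside both sets, the share of all tested genes called lower was 14.5%, 11.3% and 19.4% in endothelial, mural or mesenchymal and myeloid cells. Fabp7, a fatty acid binding protein of radial glia, was lower in endothelial (-4.67 ± 0.51) and myeloid cells (-2.32 ± 0.40) and did not pass in mural or mesenchymal cells (267 to 448 CPM; -0.94 ± 0.38, adjusted p = 0.054). The 5 choroid plexus genes summed to 0 in every endothelial and myeloid sum and to at most 17.9 CPM in mural or mesenchymal sums. The 9 red cell genes summed to at most 305.8, 114.5 and 316.8 CPM in the lists. The first of these is the MGE endothelial sum, in which Hba-a1 stood at 266.9 CPM with the Pf4 cell and at 6.16 CPM without it. Neither set passed the filter.

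Cycling genes were present in every list. Of 12 such genes, 5 were lower in mural or mesenchymal cells (all tested genes, 11.3%) and 4 in myeloid cells (19.4%) than in other cells, and in endothelial cells the log2 FC ran from -0.89 ± 0.32 for Cenpf to 0.81 ± 0.26 for Cdk1. Mki67, a marker of cycling cells, stood at 156, 428, 167 and 159 CPM in endothelial cells, 243, 429.5, 286 and 0 CPM in mural or mesenchymal cells and 307, 256, 208 and 177 CPM in myeloid cells, with 273, 349, 394 and 176 CPM in other cells. It did not pass in any list (-0.36 ± 0.33, -0.29 ± 0.34 and -0.01 ± 0.32). With every cell at 2000 UMIs, 25.5% of endothelial, 22.8% of mural or mesenchymal, 20.0% of myeloid and 26.5% of other cells had a Mki67 UMI, and at their own depth 46.1%, 33.7%, 44.4% and 41.7%. Genes of the early stress response, which dissociation can raise, summed to 512 to 777 CPM, 608 to 830.3 CPM and 371 to 990.4 CPM in the lists and to 194 to 394 CPM in other cells. Of 12 such genes 6 passed, with 4, 3 and 4 called higher and Dusp1 lower in myeloid cells. The shares of all tested genes called higher were 18.8%, 17.7% and 20.2%, and 19.4% were lower in myeloid cells. Egr1, an immediate early factor, stood at 35.8 to 146 CPM in mural or mesenchymal cells, 49.5 to 121 CPM in myeloid cells and 0 to 19.1 CPM in endothelial cells, and was lower in endothelial than in mural or mesenchymal cells (-3.63 ± 0.71). The part that dissociation had in these differences was not tested.

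**Figure D5:**
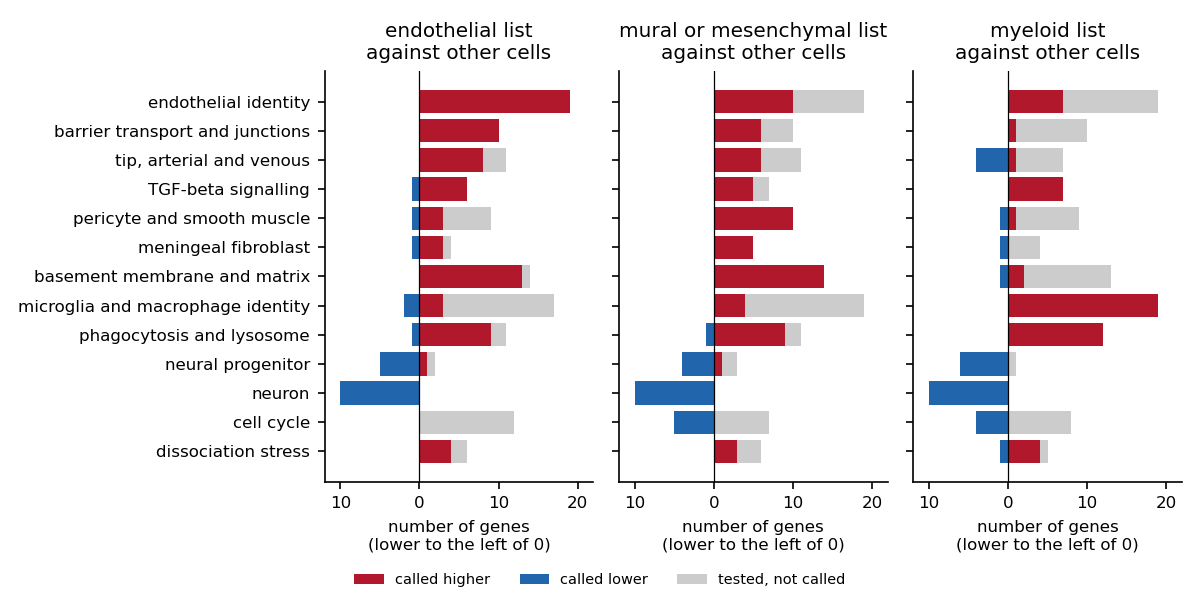
Number of tested genes of 13 gene sets that were called higher (red, right of 0), lower (blue, left of 0) or not called (grey) in each list against other cells. Each list fills its own identity set, and the 10 neuronal genes lie to the left of 0 in each panel.

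Promoter windows are shown for a few of the genes named above, so that the sequence before genes of each list can be seen beside their levels. The windows are the 250 bases before the start of the RefSeq transcript on GRCm38.p6, 5′ to 3′ on the strand of the gene. Capitals mark GGAAGT or its reverse complement ACTTCC, 1 form of the site bound by ETS factors, the family of PU.1 and of the endothelial factors Erg and Fli1. Shorter runs such as GGAA are not marked. The windows are Cd34 (chr1:194938571-194938820, plus strand), Vtn (chr11:78498870-78499119, plus strand), Ctss (chr3:95526536-95526785, plus strand) and Fcrls (chr3:87263525-87263774, minus strand).
Cd34: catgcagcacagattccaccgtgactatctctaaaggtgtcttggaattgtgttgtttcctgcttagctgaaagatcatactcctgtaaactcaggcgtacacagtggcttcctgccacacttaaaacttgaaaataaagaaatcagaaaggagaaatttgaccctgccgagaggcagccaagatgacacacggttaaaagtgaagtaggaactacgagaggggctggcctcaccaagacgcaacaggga
Vtn: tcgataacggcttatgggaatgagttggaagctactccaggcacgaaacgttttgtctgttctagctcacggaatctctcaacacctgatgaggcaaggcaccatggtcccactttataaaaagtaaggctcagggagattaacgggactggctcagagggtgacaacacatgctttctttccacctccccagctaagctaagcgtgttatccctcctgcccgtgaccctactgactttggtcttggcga
Ctss: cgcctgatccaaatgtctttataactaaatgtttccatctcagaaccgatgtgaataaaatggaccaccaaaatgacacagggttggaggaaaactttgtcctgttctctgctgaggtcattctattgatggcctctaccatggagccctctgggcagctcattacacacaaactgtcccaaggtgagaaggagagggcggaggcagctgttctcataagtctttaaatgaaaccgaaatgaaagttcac
Fcrls: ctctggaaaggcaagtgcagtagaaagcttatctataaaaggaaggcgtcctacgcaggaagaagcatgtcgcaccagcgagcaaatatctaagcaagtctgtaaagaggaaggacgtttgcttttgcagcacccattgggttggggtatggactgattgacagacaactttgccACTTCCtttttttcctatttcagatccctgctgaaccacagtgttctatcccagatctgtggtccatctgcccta
Fcrls held 1 match and the other windows held 0, which says only that these letters are not in those 250 bases. By GENCODE, Fcrls spans chr3:87250758-87263738, so most of its window, and the match, lie within the annotated gene. The end of the Vtn window also lies within its gene by GENCODE. Over both strands, GGAAGT was in 22.2% of the windows of all 27025 genes in the table, in 27.3% of those of tested genes, and in 177 of 708, 158 of 665 and 230 of 766 of those of the genes called higher in endothelial, mural or mesenchymal and myeloid cells. The longer GAGGAAGT, which contains it, was in 2.92% of the windows of tested genes and in 3.81%, 3.91% and 4.18% for the lists. TGTTTAC, a forkhead core, was in 2.21% of the windows of tested genes and in 1.69%, 2.56% and 0.914%. A match is a run of letters and not a bound site.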

How the data were processed

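Processed 10x Genomics droplet data (3′ kit) of 4 libraries were used. The authors aligned reads to the mouse genome mm10 (GRCm38) and made gene-by-barcode UMI counts with Cell Ranger, version 3.0.0 by the submitters' processing notes and 3.0.2 by the file header, and the deposited counts are raw. The labels describe a sort of live cells, while the study's methods describe sorting for another mouse line, so whether these cells were sorted is not settled. Cells with more than 1000 genes, under 10% mitochondrial and under 1% Hbb UMIs were kept. The members and the gene lists were chosen with earlier results of these data known. UMIs were summed per list and library and tested with edgeR 4.0.16 in R 4.3.3 (quasi-likelihood, TMM scaling, filterByExpr, library as block). Cells that met more than 1 list were left out of the sums and of the shares per list, and the 18 list genes were not tested. DESeq2 1.42.0 was an alternative. The test was checked on simulated data. Intervals are exact (Clopper-Pearson or Poisson, 95%), and the floor is 3 counts. Doublets were scored against simulated ones in Python 3.11.15 with scikit-learn 1.9.0, and were kept in the main sums. Genes named from each list were the 10 highest and 5 lowest by log2 FC, at 100 CPM or more and in 1 direction in every library, with the 4 of each gene list highest in CPM and those called lower. Of these and of the markers, 2 genes are not reported here. The others, such as Igf1 or Col6a1, were named after their values were seen. Of 43346 features, 42462 matched GENCODE M21.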

Additional observations from a re-analysis of the deposited data

How the results depend on the processing

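Counts of genes called moved with the number of genes tested, which was 4966 as reported, 24291 without the filter on low counts, 13319 to 13435 with only the sums of the list and of the other cells, 2497 with stricter limits on cells and 601 after thinning. Given as higher and lower for endothelial, mural or mesenchymal and myeloid cells against other cells, they were 2054 and 2310, 1887 and 1731, and 2356 and 2906 without the filter on low counts. With only the sums of the list and of the other cells in the test, they were 1700 and 2196, 1454 and 1532, and 1953 and 2947. With cells of 1500 to 4500 genes and under 5% mitochondrial UMIs, they were 479 and 361, 505 and 341, and 527 and 550. With each cell thinned to 2000 UMIs, they were 102 and 123, 105 and 86, and 91 and 163. Between the lists, no filter gave 727 and 749 (endothelial against mural or mesenchymal), 1200 and 1084 (endothelial against myeloid) and 1436 and 1189 (mural or mesenchymal against myeloid), and thinning 31 and 33, 86 and 57, and 98 and 63. Fewer or more genes tested is part of each of these settings.

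The replicate block is the library. Without it, the counts against other cells were 936 and 706, 874 and 565, and 1004 and 968. Leaving out 1 library at a time gave 931 to 1174 and 752 to 929, 882 to 1079 and 537 to 737, and 997 to 1298 and 944 to 1224, and between the lists 299 to 419 and 277 to 397, 587 to 769 and 538 to 702, and 679 to 840 and 600 to 753. Shares of kept cells moved to 0.138% (endothelial, CTX), 0.104% (endothelial, LGE), 0.185% (endothelial, CGE), 0.124% (myeloid, MGE), 0.104% (myeloid, LGE) and 0.0924% (myeloid, CGE) with 1500 to 4500 genes, to 0.0374% (endothelial, LGE) and 0.0561% (mural or mesenchymal, LGE) without cells marked as doublets, and to 0.542% (mural or mesenchymal, CTX) with 4 or more list genes. Of 666 values of 45 named genes under alternatives, 664 kept their direction and call, and Ebf1 in myeloid cells lost its call without LGE or without CGE. Another 54 values could not be had, since the gene was not tested under the alternative. The tests without the Pf4 cell, with mural-like cells alone and with microglia-like cells alone were chosen after seeing the data.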
